A study of Homo sapiens with 2 samples.

Results

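Glioma receptor tyrosine kinases were examined as sites of FLAG-tagged FOXO3 binding in U87MG, a human glioblastoma cell line. The 7 receptors were EGFR, ERBB2, ERBB3, PDGFRA, PDGFRB, MET and FGFR1, each taken as a fixed hg19 window around the gene, and a peak belonged to a receptor when its summit lay in that window. By this rule 6 of the 9717 called peaks were members, in 4 windows, and 3 windows held no called peak. The series used CETCh-seq, in which genome editing adds an epitope tag, here FLAG, to the endogenous factor so that an antibody against the tag can be used for chromatin immunoprecipitation. It comprised a FLAG library and an input chromatin library, each made from LY294002-treated cells and each with the genotype labelled wild type. LY294002 blocks phosphoinositide 3-kinase (PI3K). Whether the input cells carried the tag, and whether the FLAG cells were 1 edited clone, is not stated in the labels. The peak list was of 1 FLAG library, so intervals below cover counting error only and no difference between conditions could be tested.

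Receptor tyrosine kinases span the plasma membrane, dimerise when a growth factor binds and phosphorylate one another, which recruits adaptors and activates PI3K and the kinase AKT. AKT phosphorylates FOXO3, a forkhead transcription factor, and keeps it out of the nucleus, so inhibition of PI3K lets FOXO3 enter it. In other human cancer cells FOXO factors are known to raise transcription of receptor genes, ERBB3 among them, when this pathway is blocked. EGFR and PDGFRA are among the receptor genes most often amplified in glioblastoma, and MET is amplified in some of these tumours.

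The positions of the peaks are given on hg19, and no genome or annotation of that build was used here. Exons, introns and gene starts were therefore not assigned to any peak, and the sequence under the peaks was not read. The bases upstream of the gene starts can be shown from RefSeq on another build, GRCh38.p14, whose coordinates cannot be set beside those of the peaks. Of the 7 receptors, 5 had an entry there, with 7 starts in all. Shown are the 250 bases before the start for EGFR (both starts) and MET, which held the strongest receptor peaks, and for the first start of PDGFRA, whose peak lay nearest to the start side of its window. The forkhead core motif GTAAACA was searched on both strands. Capitals mark in each sequence a stretch of 7 bases with the most letters in common with GTAAACA or its reverse complement TGTTTAC, and only 1 such stretch is marked where several tie.
EGFR first start, chr7:55018767-55019016, + strand: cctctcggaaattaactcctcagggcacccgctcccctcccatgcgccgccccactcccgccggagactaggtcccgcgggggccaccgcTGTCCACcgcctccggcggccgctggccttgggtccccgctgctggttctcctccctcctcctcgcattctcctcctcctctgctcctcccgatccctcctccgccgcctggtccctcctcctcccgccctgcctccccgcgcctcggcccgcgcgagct
EGFR second start, chr7:55109589-55109838, + strand: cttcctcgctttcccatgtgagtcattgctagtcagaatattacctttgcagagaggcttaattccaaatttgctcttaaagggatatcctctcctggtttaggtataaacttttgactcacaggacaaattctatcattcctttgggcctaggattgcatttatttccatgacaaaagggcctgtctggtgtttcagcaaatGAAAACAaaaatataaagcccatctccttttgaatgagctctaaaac
MET, chr7:116671946-116672195, + strand: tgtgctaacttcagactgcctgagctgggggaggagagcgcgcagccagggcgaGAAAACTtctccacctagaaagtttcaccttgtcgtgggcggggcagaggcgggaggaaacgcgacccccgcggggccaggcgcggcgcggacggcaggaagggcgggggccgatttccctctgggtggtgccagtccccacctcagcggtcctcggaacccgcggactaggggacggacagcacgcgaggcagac
PDGFRA first start, chr4:54229043-54229292, + strand: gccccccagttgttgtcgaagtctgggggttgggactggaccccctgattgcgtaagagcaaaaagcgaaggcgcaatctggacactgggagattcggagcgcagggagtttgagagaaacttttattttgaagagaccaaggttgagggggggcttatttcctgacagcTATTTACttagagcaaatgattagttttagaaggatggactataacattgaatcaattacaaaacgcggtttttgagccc
None of the 7 upstream sequences held the full motif on either strand. Of all 35116 upstream sequences 2.98% held it, a share at which 7 sequences are too few to show a difference. The nearest stretch matched at 6 of 7 letters before the second EGFR start, the first PDGFRA start and the PDGFRB start. At least 6 of 7 letters were found in 3 of the 7 receptor sequences and in 36.6% of all of them. The share of G and C was 73.6% before the first EGFR start and 38.8% before the second, 68.4% for MET and 46.8% for the first PDGFRA start, and its median over all upstream sequences was 58.0%. The absence of a full match says only that these letters are not in these windows.

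FLAG enrichment was highest in the MET and EGFR windows, with 1 strong peak in each. The other 4 receptor peaks had folds below the median of the list. The strong peak of the MET window lay 5.95 kb inside its far edge and was not assigned to a gene. The fold of a peak was taken from the authors' list. By the MACS2 formula assumed here, it is the summit's ChIP pileup over the background that the peak caller estimated there, with 1 added to each. It is therefore lower than the plain ratio of the tags given below. The 6 receptor peaks had folds from 2.84 to 8.10 with a median of 3.76, against a median of 3.88 and quartiles of 3.36 and 4.80 in the whole list. A fold of 5 or more was reached by 2 of the 6, against 22.1% of all called peaks. The same 2 had a −log10 q of 10 or more, against 25.5% of all called peaks. With 6 peaks, a share of 33.3% is not far from those backgrounds.

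**Figure D1:**
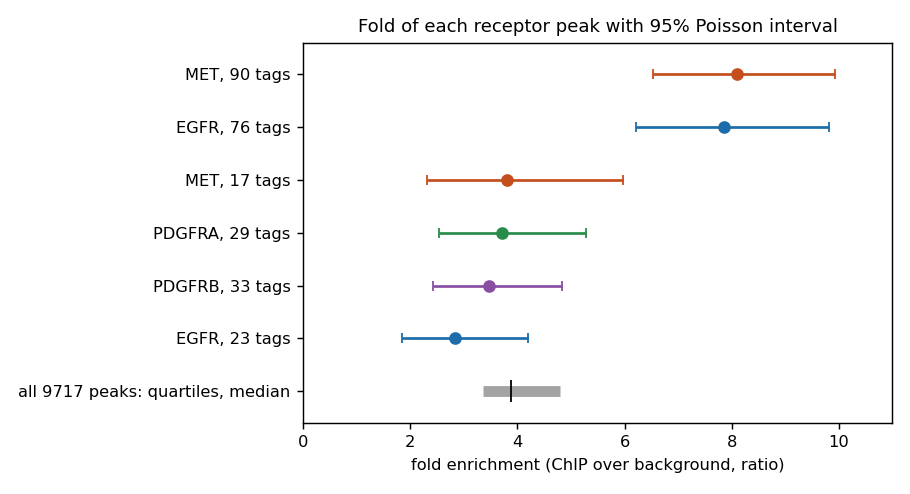
Fold enrichment (horizontal axis, a ratio) of each of the 6 receptor peaks, labelled by gene and ChIP tags at the summit, with 95% Poisson intervals as bars, above the quartiles (grey bar) and median (black tick) of all 9717 peaks. The strong peaks of the MET and EGFR windows, at 8.10 and 7.86, lie to the right of the other 4, which sit between 2.84 and 3.81.

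EGFR, the epidermal growth factor receptor, had both a strong and a weak peak. The strong peak lay on chromosome 7 from 55200461 to 55200859 (hg19), with its summit at 55200690. It had 76 ChIP tags over a background of 8.80 tags, a fold of 7.86 (95% Poisson interval 6.21 to 9.81) and a −log10 q of 39.4. It ranked 538th of 9717 in the list by fold and 30th of the 831 peaks on chromosome 7, and 96.3% of the list had fewer ChIP tags. The weak peak lay from 55133137 to 55133454 and had 23 ChIP tags over 7.45, a fold of 2.84 (1.84 to 4.20) and a −log10 q of 2.66. Only 8.20% of the list had a lower fold, so by fold this peak was among the weakest called. By ChIP tags it was not, since 40.1% of the list had fewer, and 72.5% of the list had a lower background. The summits were 67.3 kb apart and the folds differed 2.77 times, with intervals that did not overlap. EGFR is transcribed toward higher coordinates, and from the window edge on the side of its start the summits were 57.4 kb (weak) and 125 kb (strong) away. No summit was called in the first 57.4 kb of the window.

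MET, the receptor for hepatocyte growth factor, also had 2 peaks, 1 strong and 1 weaker. The strong peak lay on chromosome 7 from 116442824 to 116443389, with its summit at 116443049. It had 90 ChIP tags over a background of 10.2, a fold of 8.10 (6.53 to 9.93) and a −log10 q of 47.6, and ranked 479th in the list and 27th on chromosome 7. Its width of 566 bp was above the upper quartile of 530.5 bp of the 443 peaks with folds from 7 to 9, whereas the strong EGFR peak, at 399 bp, was nearer their median of 441 bp. The weaker peak lay from 116348378 to 116348527 and had 17 ChIP tags over 3.72, a fold of 3.81 (2.31 to 5.97) and a −log10 q of 3.63. Its width of 150 bp was the smallest in the list, a width that 643 peaks had. In fold it was near the middle of the list, with 44.9% of peaks lower, unlike the weak EGFR peak. The summits were 94.6 kb apart, and the folds differed 2.12 times with separate intervals. MET is also transcribed toward higher coordinates, and the strong summit lay 5.95 kb inside the far edge of the window, on the side of CAPZA2, the next protein-coding gene in RefSeq order, which encodes a subunit of the actin-capping protein. Which of these genes the strong peak belongs to was not assigned, and it left the MET window when the window was narrowed by 10 kb on each side.

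The receptors for platelet-derived growth factor each had 1 peak of modest enrichment. The peak at PDGFRA, which encodes the alpha receptor, lay on chromosome 4 from 55101109 to 55101332, with 29 ChIP tags over 7.07, a fold of 3.72 (2.53 to 5.29) and a −log10 q of 6.24. PDGFRA is transcribed toward higher coordinates, and this summit was 16.2 kb from the window edge on the side of its start, the shortest such distance among the receptor peaks. The peak at PDGFRB, which encodes the beta receptor, lay on chromosome 5 from 149522593 to 149522864, with 33 ChIP tags over 8.80, a fold of 3.47 (2.42 to 4.83) and a −log10 q of 6.38. PDGFRB runs toward lower coordinates, and its summit was 23.3 kb from the high edge of the window, the side of its start. The PDGFRB peak had more ChIP tags, a higher background and the lower fold of the pair, and the intervals of the 2 folds overlapped. Neither reached a fold of 5, and 42.3% of the list lay below the PDGFRA peak in fold and 30.9% below the PDGFRB peak.

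Across all 15 pairs of receptor peaks, 8 had separate fold intervals and 7 had overlapping ones. The 8 were exactly the pairs that set a strong peak (EGFR or MET) against one of the 4 weaker peaks. The strong EGFR and MET peaks overlapped each other, and so did the 4 weaker ones, so that neither order was resolved at this depth.

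The caller's background was above its genome-wide level of 3.65 tags at all 6 receptor peaks. Most of the list was above it too, since only 19.1% of all peaks stood at that level. The median background of the 6 was 8.12 tags, against 5.59 tags in the whole list. The strong EGFR and MET peaks stood on 2.41 and 2.80 times the genome-wide level, and the weaker MET peak on 1.02 times. Background at the 831 peaks of chromosome 7 had a median of 5.14 tags, against 5.59 at the 8839 peaks of the other numbered chromosomes and X. Where −log10 q was at least 10, the median background was 8.38 tags on chromosome 7 and 6.63 elsewhere. The local background enters the fold directly, and its part in the differences between receptors was not tested.

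**Figure D2:**
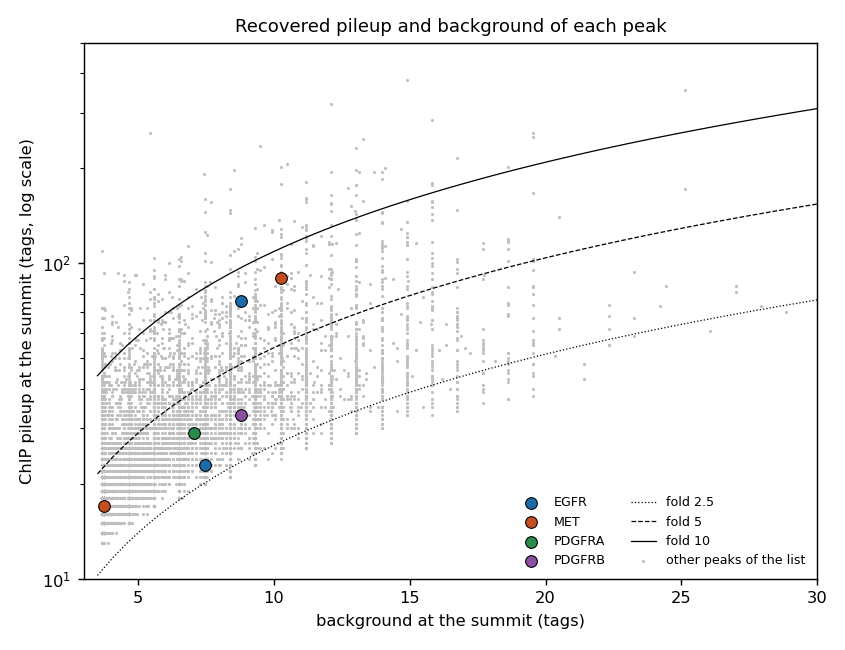
ChIP pileup (vertical axis, tags, log scale) against background at the summit (horizontal axis, tags) for the receptor peaks (large coloured points) and the list (grey; 20 peaks with a background over 30 tags are not shown), with lines of equal fold at 2.5, 5 and 10. The strong peaks of the EGFR and MET windows, with 76 and 90 tags, lie between the lines of 5 and 10. The other receptor peaks lie below the line of 5.

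ERBB2, ERBB3 and FGFR1 had no called peak in their windows. ERBB2 and ERBB3 are relatives of EGFR that signal as dimers with one another, ERBB3 with little kinase activity of its own and many docking sites for PI3K, and FGFR1 is a receptor for fibroblast growth factors. The nearest peak to the ERBB3 window was strong and close. It lay on chromosome 12 from 56519941 to 56520400, 12.2 kb beyond the high edge, with 137 ChIP tags over 13.0, a fold of 9.83 (8.27 to 11.6) and a −log10 q of 83.0. Its fold ranked 236th in the list, above every peak inside the 7 windows, although its interval overlapped those of the strong EGFR and MET peaks. In RefSeq order PA2G4, RPL41, ZC3H10 and ESYT1 follow ERBB3 on that side, and the gene at this peak was not assigned. On the low side of ERBB3 the nearest summit was 1606 kb from the window edge. Within 500 kb of the ERBB3 window this was the only called peak.

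The nearest peak to the ERBB2 window lay 55.2 kb below it on chromosome 17, from 37778708 to 37779023. It had 60 ChIP tags over 11.2 and a fold of 5.01 (3.84 to 6.43). On its high side the nearest lay 369.6 kb away, from 38264406 to 38264788, and had a fold of 5.61 (4.48 to 6.94). The nearest to the FGFR1 window on chromosome 8 lay from 38242435 to 38242669, 15.4 kb below the low edge. Its fold was 3.54 (2.38 to 5.09), and the next on the high side was 314 kb away with a fold of 4.41 (3.08 to 6.15). A window without a call can hold binding below the caller's limit. The background inside these windows is not known from the list. The limit was therefore computed on the backgrounds of the nearest peak on the low and on the high side. It is the smallest fold that reaches the lowest −log10 p-value in the list, that of the least significant call. At ERBB2 this fold was 2.22 on the low-side background and 2.07 on the high-side one. At ERBB3 it was 2.995 and 2.14, and at FGFR1 it was 2.53 and 2.60. The limits inside the windows themselves were not measured.

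**Figure D3:**
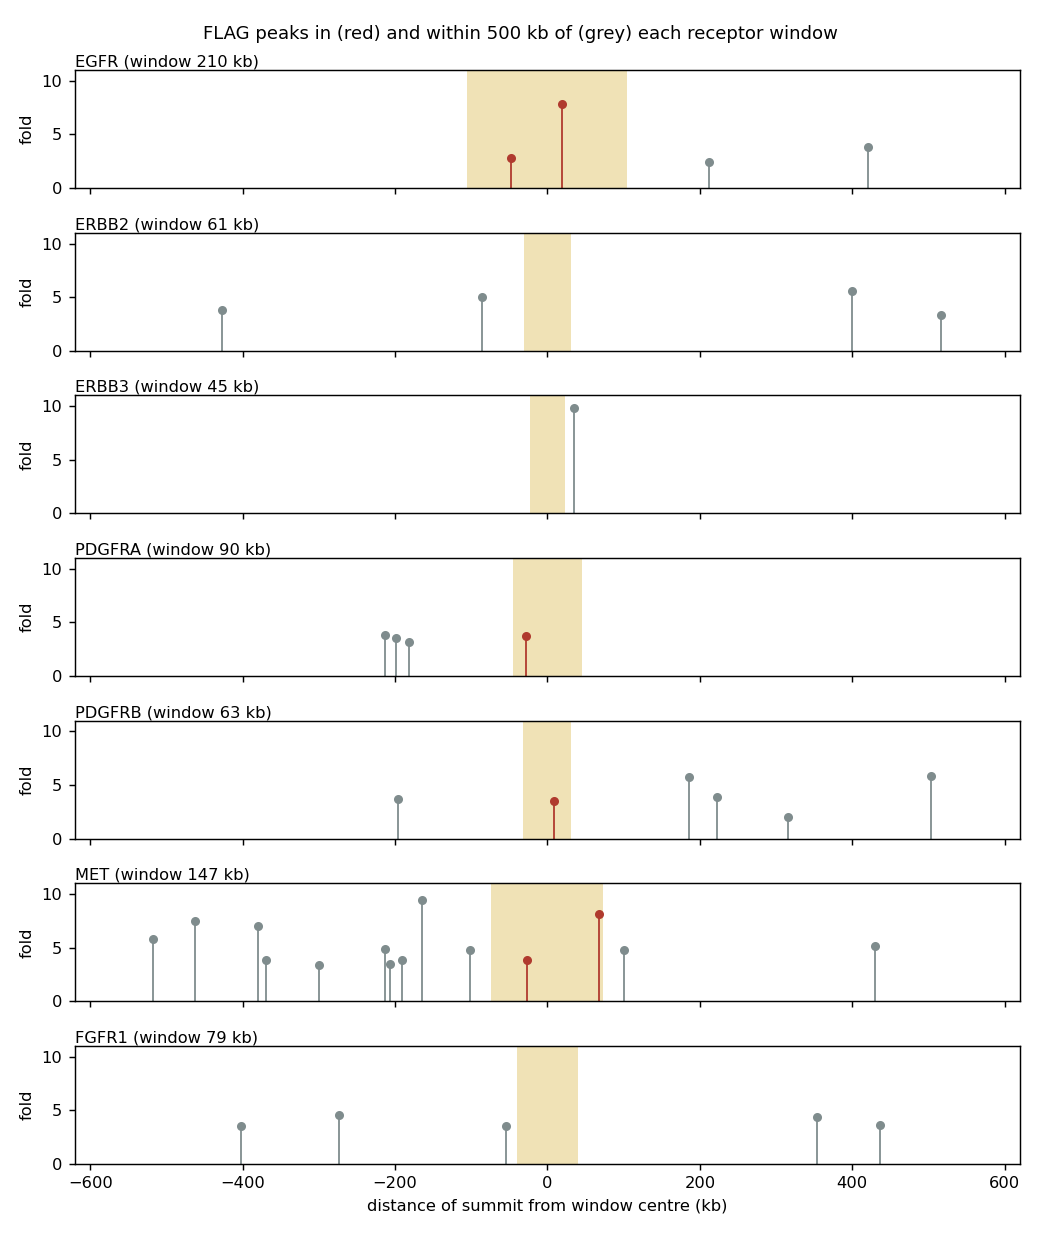
Fold (vertical axis, a ratio) of each peak against the distance of its summit from the centre of the receptor window (horizontal axis, kb), for peaks inside the window (red, window shaded) and within 500 kb of it (grey). The strong ERBB3 neighbour at 9.83 stands just outside its shaded window, MET lies among 14 peaks, and no peak is seen on the low side of EGFR.

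Windows with a called peak were 4 of 7 (57.1%). The windows differ in length, so each was set beside all stretches of its own length on chromosomes 1 to 22 and X, which are not limited to genes. At least 1 summit was held by 36.9% of stretches of 210 kb (EGFR), 29.2% of 147 kb (MET), 20.5% of 90 kb (PDGFRA) and 15.4% of 63 kb (PDGFRB). The shares were 18.5% for 79 kb (FGFR1), 15.0% for 61 kb (ERBB2) and 11.7% for 45 kb (ERBB3), and the mean of the 7 shares was 21.0%. On the receptor's own chromosome the share was 45.8% for EGFR, 37.3% for MET, 23.0% for PDGFRA and 17.4% for PDGFRB, and 19.7% for FGFR1, 15.7% for ERBB2 and 9.81% for ERBB3. A summit with a fold of 5 or more was held by the EGFR and MET windows, against 13.1% of stretches of 210 kb and 9.51% of 147 kb. For the other lengths this share was 6.07% at 90 kb, 5.38% at 79 kb, 4.31% at 63 kb, 4.22% at 61 kb and 3.14% at 45 kb. The 3 windows without a peak were among the 5 shortest.

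MET lay in a stretch rich in peaks. The 7 windows together, 695 kb, held 8.63 peaks per Mb, a value that rests on 6 peaks, against 3.33 per Mb over chromosomes 1 to 22 and X. With 500 kb added on each side, MET had 14 peaks, or 12.2 per Mb, against 5.24 per Mb on chromosome 7 as a whole. Of these 14, 6 had a fold of 5 or more, against 17.0% of all peaks on chromosome 7. The highest fold, 9.42 (6.87 to 12.6), was that of the peak from 116211022 to 116211510, below the window, which had 43 ChIP tags over 3.67. The peak from 115912426 to 115912938 reached 7.52 (5.28 to 10.4), and that from 115995022 to 115995573 reached 6.98 (5.48 to 8.78). CAV1, CAV2 and TES precede MET on that side in RefSeq order. CAV1 and CAV2 encode caveolins, membrane proteins of caveolae, and TES encodes a protein of focal adhesions.

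EGFR, on the same chromosome, had 4 peaks in the same widened span, or 3.31 per Mb, which is below the 5.24 per Mb of chromosome 7 and close to the 3.33 per Mb over chromosomes 1 to 22 and X. Of these 4 peaks, only the strong EGFR peak had a fold of 5 or more, against 17.0% of all peaks on chromosome 7. Below the weak EGFR summit no peak was called for 3963 kb, the third longest distance among the 830 between neighbouring summits of chromosome 7 and the 60th longest of 9647 in all. The median distance was 55.5 kb on chromosome 7. The peak at the far end of this gap lay from 51170575 to 51170881 and had a fold of 6.92 (4.83 to 9.64). Above EGFR the next peak, 107 kb beyond the window, had a fold of 2.45 (1.75 to 3.34) on a background of 14.9 tags.

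Of the other receptors, PDGFRB had 6 peaks in the widened span, or 5.64 per Mb, against 3.59 on chromosome 5. Of these 6, 2 had a fold of 5 or more, both above the window, against 22.7% of all peaks on chromosome 5. FGFR1 had 5 peaks, or 4.63 per Mb, against 3.18 on chromosome 8, with a highest fold of 4.56. ERBB2 had 4, or 3.77 per Mb, against 3.20 on chromosome 17, and PDGFRA had 4, or 3.67 per Mb, against 3.40 on chromosome 4. All 4 at PDGFRA had folds under 5, with a highest of 3.81, and 25.6% of all peaks on chromosome 4 reached 5. Above PDGFRA no summit was called for 949 kb, in the direction of KIT and KDR, which encode further receptor tyrosine kinases and follow PDGFRA in RefSeq order. ERBB3 had 1 peak, or 0.957 per Mb, against 2.51 on chromosome 12.

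**Figure D4:**
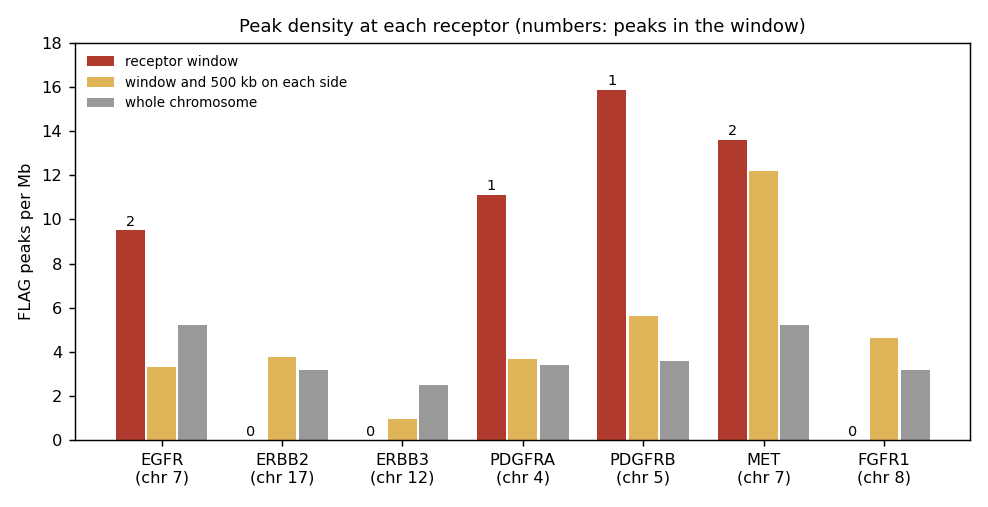
FLAG peaks per Mb (vertical axis) in each receptor window, in the window with 500 kb added on each side, and on the whole chromosome, with the number of peaks in the window above its bar. MET was dense both in its window and in the widened span, which includes the window (12.2 per Mb). EGFR had 9.52 per Mb in its window and 3.31 per Mb in the widened span.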

How the data were processed

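The FLAG library of LY294002-treated U87MG cells has a peak list of 9717 peaks, and only that list was analysed here. Per the submitters' processing notes, Trimmomatic, HISAT2 and MACS2 were used with hg19. Versions, settings, read filters and the control of the peak calls were not given in the sources used here. Whether the input library served as that control is therefore not known. Total depth is unknown. The authors' deposited list gives per peak a fold (a ratio over the caller's background), a −log10 p-value, a −log10 q-value and a score. The deposited score is 10 times the −log10 q without its decimals (100% of rows). Starts count from 1.

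The ChIP pileup and background of each peak were solved from the deposited fold and −log10 p-value, assuming the formulas of MACS2. The largest error of the returned −log10 p-value was 5.0e-04, and the step, tested on simulated data, recovered 2000 of 2000 peaks. Fold intervals are exact 95% Poisson intervals of the pileup. They leave out the error of the background and of cultures, and tags from PCR are not separate molecules. Density used the span between the first and last summit of a chromosome.

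All 7 receptors were named, with every peak in their windows. Receptors and lists were chosen with earlier results of these data known. The search for the nearest partial match to the motif was added after the full motif was not found. Lists of other receptors, ligands and adaptors were not analysed here, since they need an annotation of hg19. Python 3.11.15, pandas 2.3.3, numpy 2.4.6 and scipy 1.17.1 were used.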

Additional observations from a re-analysis of the deposited data

How the results depend on the processing

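The number of receptor peaks rests on the weaker ones and on the window edges. Of 80 values under 8 alternatives, 58 stayed within 1.5 times the reported value or, for the median fold, within its counting interval. The other 22 moved. The 58 include counts of 0 at ERBB2, ERBB3 and FGFR1, which stricter filters and narrower windows could not have changed. Counting by overlap, requiring whole intervals inside the window, or joining summits within 500 bp moved none of the 10 results. Joining could change no count, since summits in the same window were 67.3 kb (EGFR) and 94.6 kb (MET) apart. With a −log10 q of 10 or more, or with a fold of 5 or more, 2 peaks in 2 windows were left, 1 each at EGFR and MET and 0 at PDGFRA and PDGFRB, with a median fold of 7.98. At a −log10 q of 5 or more, EGFR and MET had 1 peak each and the median fold was 5.79. These medians rise because the filter removes low folds. Windows widened by 40 kb on each side held 10 peaks, with 4 at MET, 1 at ERBB3 and 1 at FGFR1. Windows narrowed by 10 kb left MET with 1 peak, the weaker one. No paired analysis was possible because there was 1 ChIP library, and no replicate could be left out. Depth limits calls to folds of 3.01 or more on the genome-wide background and 2.73 or more at the median background.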
